A study of Mus with 18 samples.

Results

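The interleukin-6 (IL-6) cytokine family was followed through 10 genes chosen by their symbols, namely 6 ligands (Il6, Lif, Osm, Il11, Ctf1 and Clcf1) and 4 receptors (Il6ra, Il6st, Lifr and Osmr). All 10 of them were listed among the 21401 gene symbols of both expression tables, one for C2C12 cells and one for gastrocnemius muscle of wild type C57BL/6 male mice. Each experiment held 9 RNA-seq libraries, 3 for control, 3 for LPS and 3 for LPS-MIC-1, so 18 in all, and no group received MIC-1 alone. C2C12 is an established mouse myoblast line, lipopolysaccharide (LPS) is a bacterial cell wall component that triggers inflammation, and MIC-1 is moringa isothiocyanate-1 from Moringa seeds. In the cells, LPS was given at 1 μg/mL and MIC-1 at 10 μM according to the labels, whereas the study's account of the cell transcriptomes names a lower dose of MIC-1. The labels give a time of 24 h for the LPS-MIC-1 cells and none for the LPS cells, while the methods describe 24 h of treatment for the cell assays. In the mice, LPS was injected intraperitoneally at 10 mg/kg, the LPS-MIC-1 group also received 80 mg/kg MIC-1 by gavage daily for 3 days beforehand, and muscle was taken 16 h after LPS. The labels call every control a saline vehicle, while the methods describe ethanol in cells and DMSO in mice as vehicles. Nothing states that the 3 libraries of a group of cells came from separate cultures, so p-values measure the spread between these libraries, which may be technical.

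Cytokines of this family signal through gp130, the shared receptor subunit encoded by Il6st. Il6ra gives IL-6 its specificity, whereas Lifr pairs with gp130 for leukemia inhibitory factor (Lif), cardiotrophin 1 (Ctf1) and cardiotrophin-like cytokine factor 1 (Clcf1), and Osmr pairs with gp130 for oncostatin M (Osm). The assembled receptors activate JAK kinases and STAT3, and STAT3 induces its own inhibitor Socs3 together with acute phase genes. In skeletal muscle, IL-6 and LIF are known as factors released by contracting fibres and acting on muscle precursor cells.

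Expression was measured as FPKM, fragments scaled to transcript length and library size, which is a level per length and so allows genes to be set side by side within a library. Differences were tested with limma on log2(FPKM + 0.1) over all genes with a mean FPKM above 1, and every log2 fold change below is on that scale, which understates the change of genes with low values. A gene was called when its log2 fold change was larger than 1 in either direction and its adjusted p was under 0.001 in C2C12 or 0.05 in muscle. With 3 libraries against 3, an exact permutation test of a single gene cannot go below p = 0.1.

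The labelled cell type was checked first, and the C2C12-labelled control and LPS libraries did not carry the markers of their label. The summed FPKM of 8 myoblast markers lay between 1.08 and 4.58 in those 6 libraries and between 937 and 1184 in LPS-MIC-1. Myf5 and Pax7 were listed at 0 in all 6 control and LPS libraries. The 10 macrophage markers found, of 12 sought, summed to between 7732 and 7826 FPKM in control libraries, between 5246 and 5329 with LPS and between 77.5 and 224 with LPS-MIC-1. Lyz2 (4694 ± 85.5 FPKM) and Laptm5 (1025 ± 14.5) had the highest means in control, and Cd14 (2040 ± 33.8) and Lyz2 (1838 ± 45.4) in LPS. All C2C12 comparisons with the LPS-MIC-1 group therefore set libraries of different marker content against each other, and in bulk RNA fewer cells of a type and less RNA per cell cannot be told apart. In muscle, the macrophage sum was 9.72 to 14.9 in 8 libraries and 142 in LPS-MIC-1 replicate 3. The 5 neutrophil markers found summed to at most 0.910 in control and LPS and to between 9.77 and 15.2 in LPS-MIC-1. Among them, Csf3r was listed at 0 in control and LPS and at 0.213, 0 and 0.355 FPKM in LPS-MIC-1. The 8 muscle fibre markers summed to between 162522 and 171349 FPKM in control and LPS muscle and to between 124505 and 134108 in LPS-MIC-1. Acta1 and Ckm were the most abundant genes of that sum. Against LPS, none of the 8 was called lower (5.44% of all tested genes were), and 3 had a positive log2 fold change. Acta1 went from 53508 FPKM with LPS to 37249 with LPS-MIC-1, and Myh2 from 23.1 to 31.7 (group means). The part of these marker differences in the results below was not tested.

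**Figure D1:**
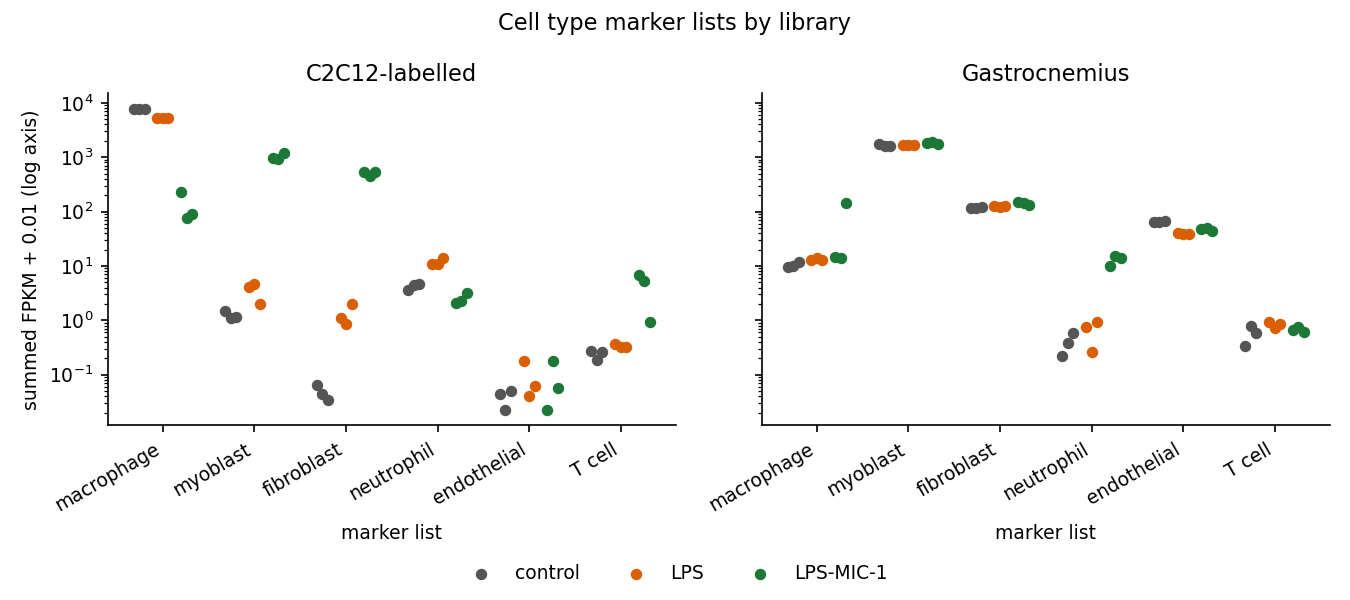
Summed FPKM of 6 cell type marker lists in each library (log axis, 0.01 added; 1 point per library) for the C2C12-labelled libraries (left) and gastrocnemius (right). Myoblast markers reach at least 937 only in LPS-MIC-1 among the C2C12-labelled libraries, and 1 muscle LPS-MIC-1 library reaches 142 for macrophage markers.

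Among the C2C12-labelled libraries, the ligand with the highest mean level differed from group to group. Osm led in control with 37.4 ± 0.758 FPKM (SD, n = 3), Lif in LPS with 173 ± 1.01 and Clcf1 in LPS-MIC-1 with 89.8 ± 30.2. In each of these 3 groups the leading ligand did not overlap with the next gene in order. Below Clcf1 in LPS-MIC-1, Osmr, Lif, Il6 and Il6st followed at 11.5 to 13.8 FPKM on average, and neighbours in that order overlapped.

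Lif, the leukemia inhibitory factor, was at 2.24, 2.35 and 2.29 FPKM in the control libraries, 173, 174 and 172 with LPS and 17.6, 10.6 and 9.28 with LPS-MIC-1. The 3 groups did not overlap, and LPS-MIC-1 lay between the others. Lif rose 75.6-fold with LPS (log2 fold change 6.18 ± 0.205 SE, limma adjusted p = 1.50e-07) and dropped 13.8-fold from LPS to LPS-MIC-1 (-3.84 ± 0.205, limma adjusted p = 4.49e-07). It remained 5.46-fold above control in LPS-MIC-1, with a limma adjusted p of 1.11e-05.

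Il6 was listed at 0 in all 3 control libraries, at 55.0, 54.4 and 61.0 FPKM with LPS and at 13.6, 9.32 and 14.1 with LPS-MIC-1. Its groups stood apart in the same order as those of Lif, and its level in LPS-MIC-1 was 4.60-fold below LPS (limma adjusted p = 2.73e-06). Against the mean of LPS, the LPS-MIC-1 libraries kept 24.0, 16.4 and 24.7% of Il6 but 10.2, 6.13 and 5.36% of Lif.

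Osm, which encodes oncostatin M, a cytokine made largely by macrophages and other blood cells, was the one ligand abundant without LPS. Its level was 37.6, 36.6 and 38.0 FPKM in control, 157, 149 and 154 with LPS and 5.29, 0.197 and 0 with LPS-MIC-1. Control and LPS differed 4.10-fold without overlap, yet the limma adjusted p was 0.186, because the fit shares 1 spread estimate with the LPS-MIC-1 libraries, where Osm varied most. With only the 6 control and LPS libraries in the fit, the limma adjusted p was 7.59e-09. In LPS-MIC-1, Osm fell 83.7-fold below LPS (log2 fold change -8.14 ± 1.23 SE, limma adjusted p = 0.000306), a call that was lost at an adjusted p of up to 0.00177 when LPS-MIC-1 replicate 2 or any 1 LPS library was left out. LPS-MIC-1 was also 20.4-fold below control without overlap, at a limma adjusted p of 0.00184 that missed the threshold.

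Osm and Lyz2, the lysozyme gene of macrophages, fell in the same order over the LPS-MIC-1 libraries. Replicates 1, 2 and 3 held 3.45, 0.128 and 0% of the Osm level in LPS, and 2.65, 0.102 and 0.0335% of the level of Lyz2. The summed macrophage markers kept 4.25, 1.47 and 1.70% of their LPS level, without that order. Cd14 made up most of these sums, at 136, 73.8 and 88.3 FPKM. Among the other markers, Laptm5 was at 14.6, 0.684 and 0.385 FPKM, Csf1r at 5.07, 0.505 and 0.320 and Mpeg1 at 7.24, 0.204 and 0.103. Itgam and Cybb also fell in the order of Osm and Lyz2, and Emr1, Ptprc and Fcgr3 were listed at 0 in replicates 2 and 3. The part of macrophage RNA in the Osm values was not tested. The shares kept by Il6 and Lif stayed above those of Osm and Lyz2 in every LPS-MIC-1 library.

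Clcf1 encodes a neurotrophic cytokine. It was listed at 0 in the 3 control libraries, at 4.09, 3.30 and 4.34 FPKM with LPS and at 101, 113 and 55.7 with LPS-MIC-1. The groups did not overlap and rose in that order, unlike Il6, Lif and Osm. Clcf1 was 23.0-fold higher in LPS-MIC-1 than in LPS (log2 fold change 4.43 ± 0.254 SE, limma adjusted p = 6.83e-07).

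Ctf1, the cardiotrophin 1 gene, was near 0 in control (0.166, 0.0819 and 0.121 FPKM) and LPS (0, 0.148 and 0.0491) and reached 1.21, 3.59 and 3.82 in LPS-MIC-1. The authors' base means put the control and LPS values at no more than 4 reads per library, so no fold is given. The rise against LPS was called with a log2 fold change of 4.11 ± 0.484 SE (limma adjusted p = 6.45e-05), as was that against control (3.60 ± 0.484, limma adjusted p = 0.000168). The latter call was lost without control replicate 2 (limma adjusted p = 0.00110) or replicate 3. Ctf1 passed the filter on mean FPKM only through the LPS-MIC-1 libraries and so had to differ there, which leaves these calls as a description.

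Il11, which encodes interleukin-11, was listed at 0 in control, at 0.772, 1.15 and 1.14 FPKM with LPS and at 0, 0.608 and 0 with LPS-MIC-1. Its mean over the 9 libraries was under the limit of 1 FPKM and it was not tested. LPS libraries did not overlap with either other group (exact permutation p = 0.1, the smallest possible, for both).

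**Figure D2:**
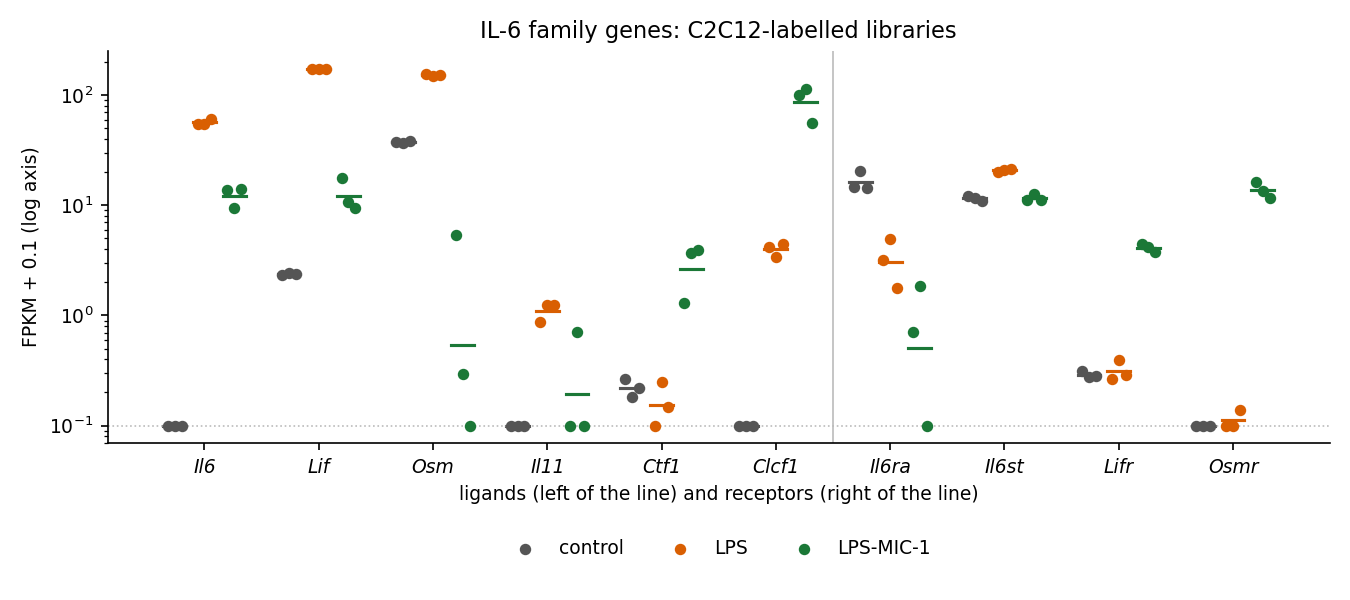
FPKM + 0.1 (log axis) of the 10 genes in the 9 C2C12-labelled libraries, with 1 point per library and a bar at the geometric mean of each group of 3; the dotted line marks a listed value of 0. Il6, Lif and Osm are highest in LPS, whereas Clcf1, Ctf1, Lifr and Osmr are highest in LPS-MIC-1.

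Among the receptors of the C2C12-labelled libraries, Il6ra was highest in control, Il6st in LPS, and Lifr and Osmr in LPS-MIC-1. Il6ra, the specific IL-6 receptor, was at 14.6, 20.4 and 14.3 FPKM in control, 3.11, 4.90 and 1.68 with LPS and 0.610, 1.75 and 0 with LPS-MIC-1. Control lay above both other groups, while LPS and LPS-MIC-1 overlapped. The 5.08-fold difference between control and LPS was not called (log2 fold change -2.41 ± 0.950 SE, limma adjusted p = 0.0554), nor was LPS-MIC-1 against control at a limma adjusted p of 0.00132.

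Lifr and Osmr, the partners of gp130 for LIF and oncostatin M, were close to 0 in the control and LPS libraries. Lifr was at 0.216, 0.174 and 0.182 FPKM in control, 0.167, 0.297 and 0.191 with LPS and 4.33, 4.09 and 3.64 with LPS-MIC-1. It rose 18.4-fold against LPS (log2 fold change 3.71 ± 0.179 SE, limma adjusted p = 2.46e-07). Osmr was listed at 0 in 5 of the 6 control and LPS libraries and at 0.0379 FPKM in LPS replicate 3, which is about 3 reads by the authors' base mean. In LPS-MIC-1 it reached 16.2, 13.5 and 11.7 FPKM (log2 fold change 6.95 ± 0.186 SE against LPS, limma adjusted p = 1.29e-08). As with Ctf1, both genes passed the filter only through the LPS-MIC-1 libraries, so their calls describe the levels and add no support. In LPS-MIC-1 libraries, Osmr stood 3.75, 3.29 and 3.20 times as high as Lifr.

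Il6st, the shared subunit, was present in all 9 libraries. Its level was 12.2, 11.5 and 11.0 FPKM in control, 20.1, 20.9 and 21.3 with LPS and 11.0, 12.6 and 11.1 with LPS-MIC-1. LPS stood above both other groups, which overlapped. The 1.80-fold difference of LPS from control had a limma adjusted p of 2.02e-05 but a log2 fold change of 0.84 ± 0.0720 SE, under the fold limit, and the value against LPS-MIC-1 was of the same size. Between LPS-MIC-1 and control, the 95% interval of the log2 fold change ran from -0.17 to 0.17.

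Counted over the family, 9 of the 10 genes were tested in the C2C12-labelled libraries. For LPS against control, 3 of 9 were called, all higher (Il6, Lif and Clcf1), beside 20.9% of 10877 genes called in either direction, 10.9% called higher and 10% called lower. For LPS-MIC-1 against LPS, 7 of 9 were called, 4 higher (Ctf1, Clcf1, Lifr and Osmr) and 3 lower (Il6, Lif and Osm), beside 49.9% of all tested genes, 24.3% higher and 25.6% lower. For LPS-MIC-1 against control, 6 were called, all higher, beside 43.3% of all tested genes, 21.1% higher and 22.1% lower. By the single libraries of all 10 genes, the groups did not overlap for 7 genes with LPS against control (64.4% of 15296 genes above 0 in at least 3 libraries), 9 for LPS-MIC-1 against LPS (77.2%) and 8 for LPS-MIC-1 against control (76.3%). Ctf1, Lifr and Osmr could be tested only because of their LPS-MIC-1 levels, so the counts against that group are a description and no support. These comparisons share libraries, so their counts are not independent of each other. Il11 did not pass the filter, so the 9 tested genes are not the whole family.

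**Figure D3:**
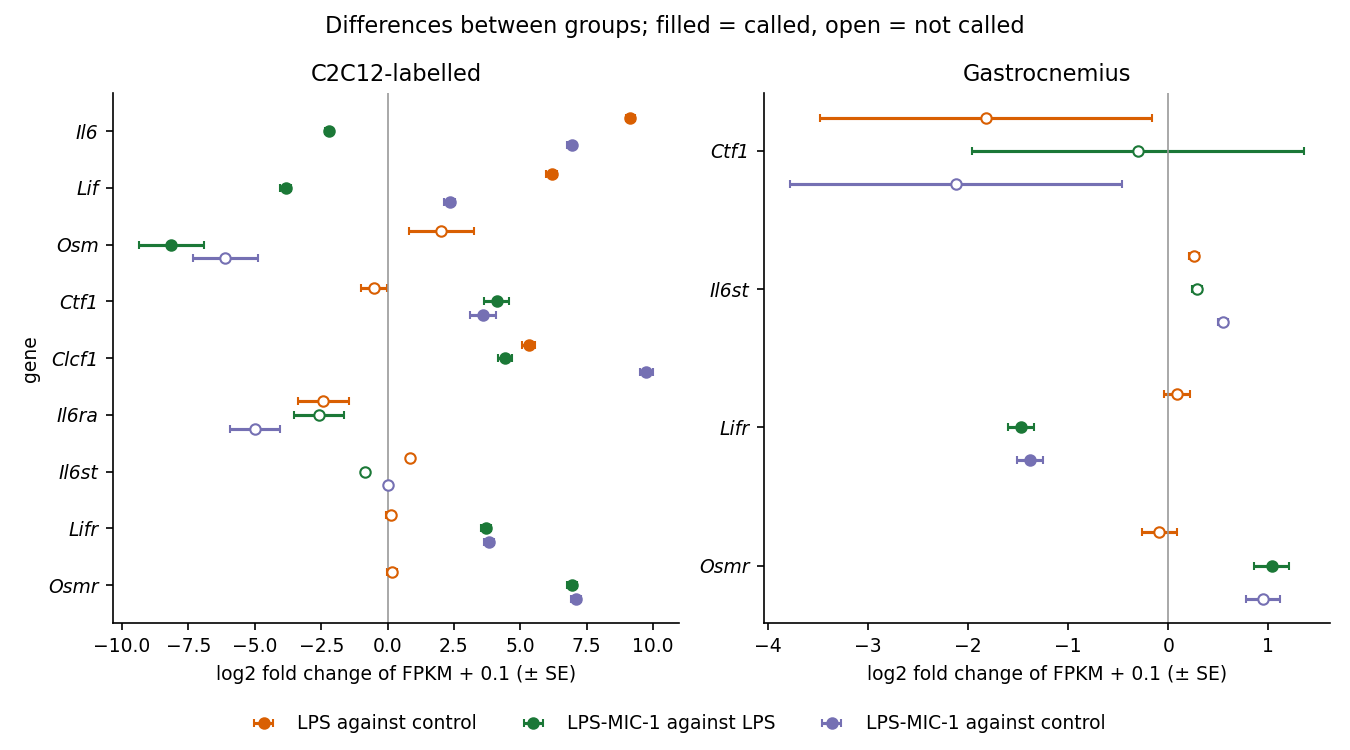
Log2 fold changes of FPKM + 0.1 with SE from limma for the genes tested, 9 in the C2C12-labelled libraries (left) and 4 in gastrocnemius (right), in 3 comparisons of 3 against 3 libraries; filled points were called. In the cells the values run from -8.14 to 9.75, whereas in muscle only Lifr (both LPS-MIC-1 comparisons) and Osmr (against LPS) are filled.

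Downstream of the receptors, 3 of 6 feedback inhibitors rose with LPS in the C2C12-labelled libraries and 0 fell (10.9% of all tested genes were called higher and 10% lower), with a median log2 fold change of 1.70 beside 0 over all genes. Cish, a cytokine-inducible inhibitor of STAT5 signalling, rose from 0.0405 ± 0.0433 to 17.0 ± 1.43 FPKM (SD, n = 3 each; limma adjusted p = 0.000179), and Socs3, the inhibitor that binds gp130, rose from 33.0 ± 1.43 to 298 ± 2.47 FPKM (limma adjusted p = 6.95e-07). Cish passed the filter on mean FPKM only through the LPS libraries, so its call is a description. Of 15 genes listed as known to respond to gp130 signalling, 12 were tested, of which 9 rose and 0 fell, with a median of 2.03. Lcn2 and Saa3 changed most, by log2 fold changes of 11.20 and 10.28. Both genes also respond to other inflammatory signals.

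Among 8 signal transducers, 2 rose with LPS, Jak2 by 1.86 and Stat3 by 1.10 on the log2 scale, and 0 fell. The 5 other family ligands and receptors tested gave 0 calls by limma, with 1 at an unadjusted p under 0.05. At that level 3547 of all 10877 tested genes were higher and 3651 lower. Among these 5, Il27, a subunit of IL-27, was at 1.81, 2.17 and 1.98 FPKM in control and 28.6, 27.2 and 26.8 with LPS (log2 fold change 3.73, limma adjusted p = 0.00314). Ebi3, the other IL-27 subunit, was at 45.3 ± 2.57 and 133 ± 7.45 FPKM (1.55, limma adjusted p = 0.138). Control and LPS did not overlap for either gene, and as for Osm the fit shares its spread estimate with LPS-MIC-1, where Il27 was at 0.507 ± 0.632 FPKM. Of 4 genes of receptor shedding, the cleavage that releases soluble IL-6 receptor, 1 rose, namely Rhbdf2 (log2 fold change 1.75, limma adjusted p = 1.71e-05), a partner of the sheddase Adam17.

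In LPS-MIC-1 against LPS, Socs3 fell from 298 to 23.4 ± 5.68 FPKM (limma adjusted p = 7.56e-08), below its control mean. Of the 6 feedback inhibitors, 2 rose and 2 fell, beside 24.3% of all tested genes called higher and 25.6% called lower, with the largest changes in Cish (-5.10) and Socs2 (3.79, from 1.06 to 15.8 FPKM). Cish passed the filter only through LPS and Socs2 only through LPS-MIC-1, so their calls are a description. The responsive genes gave 3 higher and 7 lower of 12, with a median log2 fold change of -1.42 beside -0.05 over all genes. Lcn2 fell by 8.05 on the log2 scale, whereas Timp1, an inhibitor of matrix metalloproteinases, rose by 6.55, from 17.0 ± 1.34 to 1607 ± 205 FPKM.

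Transducers gave 1 higher and 4 lower of 8 in LPS-MIC-1 against LPS, a called share to be read against 49.9% of all tested genes. The largest changes were in the adaptor Gab1 (log2 fold change 4.92) and the kinase Jak2 (-2.34). Gab1 passed the filter only through LPS-MIC-1, so its call is a description. The sheddase Adam17 fell by 3.46 on the log2 scale, from 28.8 to 3.08 FPKM, and Rhbdf2 by 2.71, while Rhbdf1 rose. Of the 5 other family genes, 3 rose and 2 fell. Cntf, among those that rose, passed the filter only through LPS-MIC-1, so its call is a description. Ebi3, whose chain is shared by IL-27 and IL-35, fell by 7.68 on the log2 scale. Its level was 133 ± 7.45 FPKM in LPS against 1.12 ± 1.56 in LPS-MIC-1. Macrophage and myoblast markers moved between the same groups.

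Against control, where 21.1% of all tested genes were called higher and 22.1% lower, LPS-MIC-1 was called higher for 5 and lower for 2 of the 12 responsive genes (median log2 fold change 1.63 beside -0.06), with Timp1 (13.54) and Saa3 (6.89) changed most. Feedback inhibitors were 2 higher and 0 lower of 6, namely Socs2 (6.33) and Socs1 (2.72). Transducers were 1 higher (Gab1, 5.10) and 2 lower of 8 (Grb2, -2.05, the larger). Socs2 and Gab1 could be tested only because of their LPS-MIC-1 levels, so their calls are a description. Ebi3 was lower, at -6.13. Of the shedding genes, 1 was higher and 2 lower of 4, with Adam17 at -4.02 and Rhbdf1 at 2.76.

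In gastrocnemius muscle, 5 of the 6 ligands had a mean under 1 FPKM in every group, and Il6st and Lifr were the most abundant members in control and LPS. Il6st led in every group, at 12.7 ± 0.597 FPKM in control, 15.2 ± 0.395 with LPS and 18.5 ± 0.579 with LPS-MIC-1 (SD, n = 3 each), and did not overlap with the next gene in order. Ctf1 was the only ligand with a mean above 1 FPKM over the 9 libraries. Lifr did not overlap with Osmr or Il6ra in control and LPS, whereas these 3 receptors overlapped with each other in LPS-MIC-1.

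Il6st was at 12.4, 12.2 and 13.3 FPKM in the control libraries, 15.3, 14.8 and 15.5 with LPS and 19.2, 18.1 and 18.3 with LPS-MIC-1. The 3 groups did not overlap and stood in that order. Each step was small, 1.20-fold for LPS against control (log2 fold change 0.26 ± 0.0496 SE, limma adjusted p = 0.00988) and 1.22-fold for LPS-MIC-1 against LPS (0.29 ± 0.0496, limma adjusted p = 0.00135), so none was called. LPS-MIC-1 was 1.46-fold above control (limma adjusted p = 2.83e-05), also under the fold limit.

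Lifr was at 7.52, 6.40 and 7.89 FPKM in control, 7.80, 7.88 and 7.39 with LPS and 2.33, 3.32 and 2.59 with LPS-MIC-1. Control and LPS overlapped, and all 3 LPS-MIC-1 libraries lay below them. Lifr fell 2.80-fold against LPS (log2 fold change -1.47 ± 0.131 SE, limma adjusted p = 2.73e-05) and 2.65-fold against control (-1.38 ± 0.131, limma adjusted p = 3.66e-05). It was called in all 9 fits that left out 1 library, in both comparisons.

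Osmr moved the other way, at 1.47, 1.68 and 1.88 FPKM in control, 1.62, 1.63 and 1.44 with LPS and 2.55, 3.70 and 3.81 with LPS-MIC-1. The LPS-MIC-1 libraries lay above all others. Osmr rose 2.14-fold against LPS (log2 fold change 1.03 ± 0.173 SE, limma adjusted p = 0.00108), just past the fold limit, and the call was lost at 0.93 to 0.98 when LPS replicate 3 or LPS-MIC-1 replicate 2 or 3 was left out. Against control the log2 fold change was 0.94 ± 0.173 (limma adjusted p = 0.00172), under the limit.

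Within a library, the ratio of Osmr to Lifr gives the balance of these gp130 partners without any scaling between libraries. It was 0.195, 0.262 and 0.238 in control, 0.208, 0.207 and 0.195 with LPS and 1.09, 1.12 and 1.47 with LPS-MIC-1. Lifr was thus the more abundant of the pair in all 6 control and LPS libraries and Osmr in all 3 LPS-MIC-1 libraries, which did not overlap with them (exact permutation p = 0.1, 2-sided, the smallest possible). Lifr and Osmr neighbour each other on chromosome 15 in the GRCm38.p6 annotation, with 0 protein-coding genes between them.

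Il6ra was barely detected in control muscle (0.0230, 0 and 0.0232 FPKM) and in LPS (0.0464, 0.0466 and 0.0691), and reached 3.44, 1.81 and 3.21 in LPS-MIC-1. Groups did not overlap in any of the 3 comparisons. By the authors' base means, these values stand for about 2 reads over the control group, 7 over LPS and 377 over LPS-MIC-1. The ratio of LPS-MIC-1 to LPS in reads was 53.9, with an exact 95% interval of 25.9 to 135 that covers counting error only. Il6ra had a mean just under 1 FPKM and so was not tested, and without that filter its log2 fold change against LPS was 4.20 ± 0.268 SE and the gene was called (14% of the 15434 genes then tested were called).

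**Figure D4:**
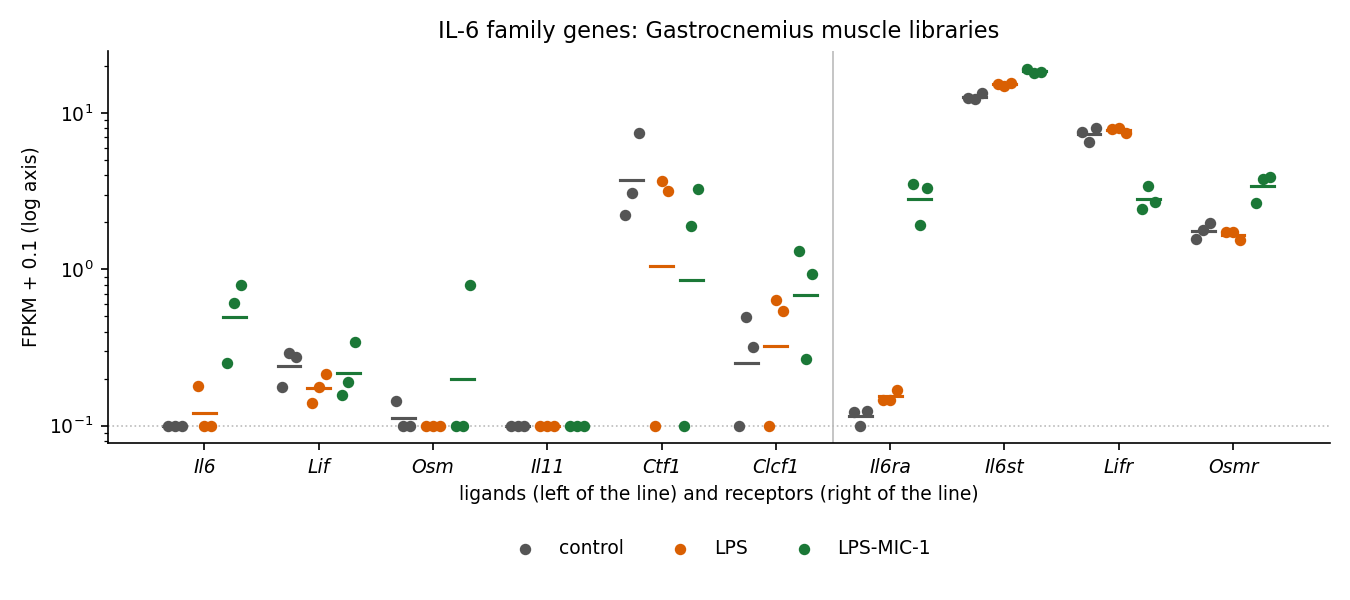
FPKM + 0.1 (log axis) of the 10 genes in the 9 gastrocnemius libraries, with 1 point per library and a bar at the geometric mean of each group of 3; the dotted line marks a listed value of 0. Il6ra and Osmr are highest and Lifr lowest in LPS-MIC-1, and Il11 is listed at 0 in every library.

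Ligand levels in muscle were low throughout. Il6 was listed at 0 in 5 of the 6 control and LPS libraries, at 0.0780 FPKM in LPS replicate 1 and at 0.152, 0.512 and 0.694 in LPS-MIC-1, which are about 1 read over LPS and 18 over LPS-MIC-1. The LPS-MIC-1 libraries lay above the others, with a ratio to LPS in reads of 18.0 and an exact 95% counting interval of 2.84 to 750. Il6 was under the FPKM filter, and it is above 0 in enough libraries for the fit without that filter only through LPS-MIC-1, so no test is drawn on.

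Osm was above 0 in only 2 muscle libraries, control replicate 1 with 0.0428 FPKM and LPS-MIC-1 replicate 3 with 0.692. The latter is the muscle library with the macrophage marker sum of 142 FPKM. Lyz2 was at 78.3 FPKM in it and at 5.27 and 3.93 in the other LPS-MIC-1 libraries. Il6, Il6ra and Osmr were above all control and LPS libraries in LPS-MIC-1 replicates 1 and 2 as well, Il6 with about 2 reads in replicate 1. In both replicates the same held for the macrophage markers Cd14 (3.39 and 3.74 FPKM), Mpeg1 (1.44 and 1.58), Fcgr3 (1.56 and 1.20), Itgam and Cybb. It did not hold for Lyz2, Csf1r, Laptm5, Emr1 and Ptprc. The part of macrophage RNA in these values was not tested.

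Ctf1 was at 2.14, 2.97 and 7.34 FPKM in control, 0, 3.59 and 3.05 with LPS and 0, 1.79 and 3.18 with LPS-MIC-1. The groups overlapped and the values within a group ran from 0 upward, so that the 95% interval of the log2 fold change of LPS-MIC-1 against LPS reached from -4.11 to 3.51. Clcf1 lay between 0 and 1.21 FPKM and Lif between 0.0387 and 0.242 over the 9 libraries, with overlapping groups in every comparison. Il11 was listed at 0 in all 9.

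In muscle, 4 of the 10 genes passed the filter and were tested. For LPS against control limma called 0 of 4, beside 1.25% of 9475 genes called, 0.654% higher and 0.591% lower. At an unadjusted limma p under 0.05 was 1 of the 4 (Il6st), beside 1461 of all tested genes higher and 1348 lower. For LPS-MIC-1 against LPS 2 of 4 were called, 1 higher (9.67% of all tested genes) and 1 lower (5.44%), beside 15.1% in either direction. For LPS-MIC-1 against control 1 was called, lower, beside 15.5% of all tested genes, 9.33% higher and 6.12% lower. The groups did not overlap for 2 of the 10 genes with LPS against control (28% of 15434 genes above 0 in at least 3 libraries), 5 for LPS-MIC-1 against LPS (50.7%) and 5 for LPS-MIC-1 against control (51.6%).

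In LPS against control muscle, 4 of 6 feedback inhibitors fell and 0 rose, with a median log2 fold change of -2.05 beside 0.01 over all genes and 0.591% of all tested genes called lower. Ptpn2, a phosphatase acting on JAK and STAT proteins (-0.04), and Pias3, an inhibitor of STAT3 (0.22), were not called. Socs1 fell by 5.79 and Cish by 3.39 on the log2 scale, and Socs3 went from 6.10, 4.63 and 5.78 FPKM in control to 0.725, 1.08 and 0.288 in LPS (limma adjusted p = 0.00112). Of 15 responsive genes, 4 rose and 1 fell (median -0.05), beside 0.654% of all tested genes called higher. The largest changes were in Saa3 (3.47) and Mt2 (2.16), a metallothionein. Saa3 was low, listed at 0 in control and at 0.877, 1.33 and 0.871 FPKM in LPS. It was tested only because of its LPS-MIC-1 level. None of the 8 transducers was called by limma, with 4 at an unadjusted p under 0.05. At that level 1461 of all 9475 tested genes were higher and 1348 lower. The 4 other family genes and the 3 shedding genes gave 0 calls, each with 1 gene at an unadjusted p under 0.05.

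In LPS-MIC-1 muscle, STAT3 itself and most gp130-responsive genes were higher than in LPS. Stat3 was at 7.40, 7.04 and 6.75 FPKM with LPS and 29.3, 30.9 and 28.8 with LPS-MIC-1 (log2 fold change 2.06, limma adjusted p = 1.75e-08), the 1 transducer of 8 called. Of the 15 responsive genes, 13 rose and 0 fell, with a median log2 fold change of 2.93 beside -0.01 over all genes and 9.67% of all tested genes called higher. Saa3, Lcn2, Serpina3n, Hp and Timp1 passed the filter on mean FPKM only through LPS-MIC-1 and so had to be higher there. The count and median are therefore a description. Lcn2 rose by 10.37 and Saa3 by 8.85 on the log2 scale, to 1248 ± 79.1 and 511 ± 31.8 FPKM. The summed neutrophil markers, which include no gene of this list, were higher in the same libraries. S100a8 was at 7.25, 7.47 and 7.41 FPKM in LPS-MIC-1, and S100a9 at 0, 6.65 and 4.79.

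Socs3 returned to 4.92, 6.11 and 6.49 FPKM in LPS-MIC-1, a rise of 3.03 over LPS (limma adjusted p = 0.000142), and overlapped with control. Together with Socs1 (2.24) it made 2 of 6 feedback inhibitors higher, and Cish (-1.60) was lower. Both rhomboid-like partners of Adam17 rose, Rhbdf1 by 1.64 and Rhbdf2 by 1.46.

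Against control, LPS-MIC-1 muscle was called higher for 14 of the 15 responsive genes (median log2 fold change 4.39 beside 0.01, and 9.33% of all tested genes called higher), with Saa3 at 12.32 and Lcn2 at 11.28. Here too Saa3, Lcn2, Serpina3n, Hp and Timp1 could be tested only because of their LPS-MIC-1 levels, so this count is a description. Of the 8 transducers, 3 were called higher and 0 lower, with Stat3 (2.25) and Gab1 (1.53) among those higher. Socs1 (-3.55) and Cish (-4.99) were lower, the 2 of 6 feedback inhibitors called. Rhbdf1 (1.72) and Rhbdf2 (1.09) were higher.

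**Figure D5:**
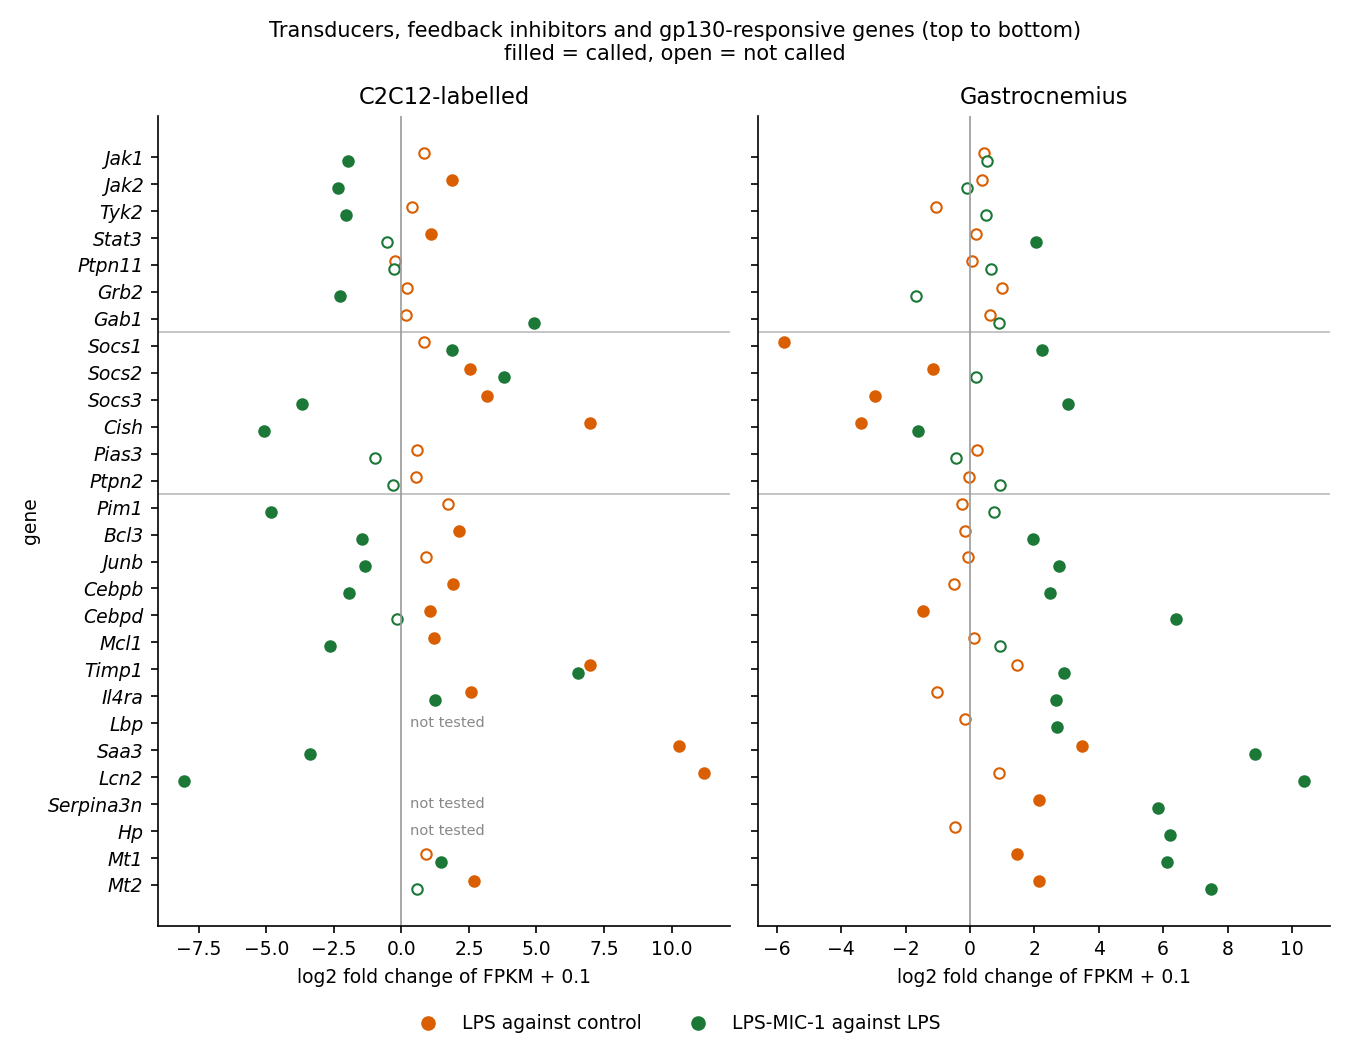
Log2 fold changes of FPKM + 0.1 for 7 of the 8 signal transducers, 6 feedback inhibitors and 15 gp130-responsive genes in the C2C12-labelled libraries (left) and gastrocnemius (right), for LPS against control and LPS-MIC-1 against LPS; filled points were called. In muscle 13 of the 15 responsive genes are called higher in LPS-MIC-1 than in LPS, whereas in the cells 7 of 12 are called lower. In muscle Saa3, Lcn2, Serpina3n, Hp and Timp1 passed the filter only through LPS-MIC-1.

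Of the other chains known to pair with gp130, Cntfr and Il11ra1 were present in muscle without a call in any comparison. Il27ra, at 0.326, 0.179 and 0.119 FPKM in control, LPS and LPS-MIC-1 (group means), was under the filter and not tested. Cntfr, the receptor for ciliary neurotrophic factor, was at 18.7 ± 1.14 FPKM in control, 21.8 ± 1.58 with LPS and 15.2 ± 0.960 with LPS-MIC-1. Il11ra1, the IL-11 receptor, was at 18.7 ± 0.523, 18.1 ± 1.39 and 21.1 ± 0.650 FPKM, while its ligand Il11 was listed at 0.

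The genes most like the leading members were taken by Pearson correlation of log2(FPKM + 0.1) over the 9 libraries of an experiment, as a description, since libraries of a group share their condition. For Osm in the cells they were Ms4a6d (r = 0.999), Usp18 (0.999) and Larp4b (0.997), and for Il6st Faf2, Gfod1 and Angptl6 (0.991 to 0.994). For Ctf1 in muscle they were Arhgef11, Mir25 and Inpp4a (0.937 to 0.951). For Il6st in muscle they were the myosin gene Myh2 (0.996), the myostatin gene Mstn (0.995) and Srp72 (0.995).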

How the data were processed

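RNA-seq of 18 libraries was analysed. The authors pseudoaligned reads with kallisto (0.46.11), summarised them per gene and deposited FPKM values. The notes of the authors list mm9 and DESeq2 (1.30.13), so no coordinates were taken from the GRCm38.p6 table, which matched 10 of 10 genes by symbol and gave only neighbours. Result tables that the authors deposited from DESeq2 hold base means (normalized count signal averaged over the libraries compared), fold changes and p-values. From 5 of them only the base means were used, to convert FPKM to approximate reads at the authors' scaling, because depth per library is not stated. The table of control and LPS muscle was on another scale and not used, nor were 9 per-sample columns without a name.

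Each experiment was fitted with limma 3.58.1 in R 4.3.3 on log2(FPKM + 0.1) for genes with a mean FPKM above 1 over its 9 libraries, with 3 group means, eBayes with trend and Benjamini-Hochberg adjustment over all genes tested. The thresholds follow the study. Permutation tests were exact and 2-sided (scipy 1.17.1), and intervals of read ratios were Clopper-Pearson at 95%. The FPKM files give no counts, so a single FPKM value carries no counting interval. The steps were tested on simulated data. Replicates correlated at 0.936 to 0.989 in cells and 0.949 to 0.962 in muscle, and no columns were identical.

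The members and lists were chosen with earlier results of these data known. Named were all members and, from each pathway list and comparison, the 2 called genes with the largest change. Other list genes (Socs3, Jak2, Stat3, Gab1, Rhbdf1, Ptpn2, Pias3, Il27, Ebi3, Cntf, Cntfr, Il11ra1, Il27ra, Serpina3n, Hp, Timp1 and the single marker genes, where outside this rule) and the ratio of Osmr to Lifr were chosen after their values were seen. Values of 2 list genes are not reported here. As alternatives, the pseudocount was set to 1 or 0.01, all genes listed above 0 in 3 or more libraries were tested, FPKM were rescaled by median ratios, and fits used only the 6 libraries compared, a replicate block, or all libraries but 1. Epithelial, T cell, adipocyte, fibroblast, endothelial and muscle fibre markers were also summed.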

Additional observations from a re-analysis of the deposited data

Results flagged for a closer look

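In 6 comparisons a gene moved one way in every C2C12-labelled library and the opposite way in every muscle library, relative to the group compared with, and this difference between the experiments was not tested. Values are log2 differences of group means of log2(FPKM + 0.1). For LPS-MIC-1 against LPS, Il6 was at -2.22 in the cells and 2.04 in muscle, a gap of 4.25, and Il6st at -0.84 and 0.29, a gap of 1.13. Lifr went from 3.71 in the cells to -1.47 in muscle for the same comparison (gap -5.18) and from 3.82 to -1.38 against control (gap -5.21). Il6ra was at -5.00 in the cells and 4.62 in muscle for LPS-MIC-1 against control, a gap of 9.62. For LPS against control it was at -2.41 and 0.42, a gap of 2.83 that rests on about 2 reads over the control and 7 over the LPS muscle libraries. The muscle value of Il6 rests on about 1 read over LPS and 18 over LPS-MIC-1.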

How the results depend on the processing

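The number of members called moved by over 1.5 times in 3 of the 6 comparisons. In C2C12 it went from 3 to 5 for LPS against control with only the 6 libraries compared, which added Osm and Il6ra (limma adjusted p = 0.000583). In muscle it went from 2 to 1 with a pseudocount of 1 and to 4 without the FPKM filter (Il6 and Il6ra added, Il6 being tested only through its LPS-MIC-1 values) for LPS-MIC-1 against LPS, and from 1 to 3 without the filter and to 2 with only the 6 libraries for LPS-MIC-1 against control. Leaving out each library in turn gave 1 to 3 in both of these muscle comparisons. Il6ra passed the filter whenever 1 control or LPS library was left out. It did so only through its LPS-MIC-1 values, so its calls in those fits are a description. Osmr was lost against LPS without LPS-MIC-1 replicate 2 or 3 or LPS replicate 3. Against control, Osmr was gained without control replicate 3 or LPS-MIC-1 replicate 1. In C2C12, leaving out 1 library gave 5 to 7 for LPS-MIC-1 against LPS and 5 to 6 against control, where Il6ra was gained without LPS-MIC-1 replicate 2 or 3, Osm without replicate 1, and Ctf1 dropped below the filter without any 1 of the 3.

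The replicate numbers did not pair the samples, since correlations of deviations between equal numbers ran from -0.0757 to 0.0573 in C2C12 and from -0.0540 to 0.0823 in muscle, and 3 and 5 of 9 libraries correlated best with their own number. With the replicate block, 3, 7 and 7 members were called in C2C12 and 0, 2 and 1 in muscle. No member changed direction among calls. Of 573 member values under an alternative, 550 kept their side of the threshold, with 13 losing and 10 gaining a call. The direction of values without a call was not part of this count. Some of these changed sign when a library was left out, such as Ctf1 in muscle for LPS-MIC-1 against LPS. Without the filter, the median log2 fold change of all C2C12 genes moved from -0.05 to 0.19 for LPS-MIC-1 against LPS. Genes near 0 FPKM rest on a few reads, which limits Il6, Osm, Il11, Clcf1 and Il6ra in muscle.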

Other observations

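The other marker lists gave these summed FPKM. In the C2C12-labelled libraries, 6 fibroblast markers were at most 1.95 in control and LPS and between 442 and 537 in LPS-MIC-1, 8 muscle fibre markers lay between 10.5 and 37.7 and between 674 and 970, and 4 epithelial markers were at most 0.209 and between 9.85 and 16.7. The 4 T cell markers there were at most 0.362 in control and LPS and between 0.938 and 6.69 in LPS-MIC-1. That sum came from Cd3d alone, since Cd3e, Cd3g and Cd2 were not detected in any C2C12-labelled library. Most of the epithelial sum in LPS-MIC-1 came from Krt19. Among the C2C12-labelled libraries, neutrophil markers ran from 2.09 to 14.2, and endothelial and adipocyte markers stayed under 0.17 in every library. In muscle, fibroblast markers ran from 117 to 152, myoblast markers from 1616 to 1879, adipocyte markers from 1.55 to 11.1, T cell markers from 0.329 to 0.929 and epithelial markers from 0.323 to 1.43. The muscle sums of fibroblast and myoblast markers are carried by Dcn and Des. Among their other genes, Col1a1 was at 12.7 FPKM with LPS and 4.44 with LPS-MIC-1, Col3a1 at 16.9 and 7.23, and Myod1 at 33.9 and 4.72 (group means, n = 3). By limma these 2 of 6 fibroblast markers and 1 of 7 tested myoblast markers were called lower with LPS-MIC-1, against LPS, with a median log2 fold change of -0.75 over the fibroblast list. Endothelial markers lay between 64.5 and 66.8 in control muscle, between 38.5 and 40.6 in LPS and between 43.8 and 48.9 in LPS-MIC-1.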
